A study of Homo sapiens with 12 samples.

Results

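Described here are 59 nuclear genes that encode subunits of the respiratory chain, in PC9 cells that were left untreated, exposed to erlotinib or deprived of TDP1. The genes were taken from a written list of symbols for complexes I to V and matched by Ensembl identifier to a count table of 62754 genes. All 59 were found, 36 of complex I, 4 of complex II, 7 of complex III, 7 of complex IV and 5 of complex V, the ATP synthase. NDUFA4 is counted with complex IV, where its protein is now placed, although its name comes from complex I. The list does not hold every nuclear subunit, and a further 20 are given below as other subunits.

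The respiratory chain sits in the inner mitochondrial membrane. Complexes I and II pass electrons from NADH and succinate to ubiquinone, complex III passes them to cytochrome c, and complex IV passes them to oxygen. The protons pumped by complexes I, III and IV drive ATP synthesis by complex V. Except for complex II, each complex combines a few proteins made inside the mitochondrion from its own genome with many imported from the cytosol, so the genes described here are the imported share.

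PC9, an established line from a human lung adenocarcinoma, grows on signals from a mutated EGFR, the receptor kinase that erlotinib blocks. Polyadenylated RNA from a subclonal PC9 line was sequenced in 12 libraries, 3 in each of 4 groups. The groups were TDP1 wild-type cells without drug (untreated WT), wild-type cells kept for 7 days in erlotinib at 1 µM (drug-tolerant cells, DTC), wild-type cells held at that dose for 28 days (drug-tolerant expanded cells, DTEC), and TDP1 knockout cells of the line KO2 without drug (KO). TDP1 is the phosphodiesterase that removes trapped topoisomerase I from DNA. The 3 cultures of a condition were split from a shared starting flask and then grown apart, so p-values measure the spread between such cultures. In the gene tests that spread was estimated over all 12 libraries together. The DTC libraries therefore also enter the p-values of comparisons without DTC. The KO group stands for a single knockout line, and no erlotinib-treated knockout cells were sampled.

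Levels are given as CPM, the estimated read count of a gene scaled to a common library total, with TMM scaling of library totals. A gene was called when its adjusted p was under 0.05 in edgeR's quasi-likelihood test with Benjamini-Hochberg adjustment over the 17115 genes that passed a filter on low counts, and all 59 subunit genes passed that filter. Library totals ran from 25572664 to 38373675 counts. The targeted gene, TDP1, had a mean of 26.3 ± 1.60 CPM in untreated WT (SD, n = 3) against 10.8 ± 0.647 in KO, so its transcript was lower but present in the knockout line. The epithelial markers EPCAM, KRT8, KRT18, KRT19 and CDH1 ran from 286 CPM for CDH1 to 4015 for KRT8 in untreated WT. In DTC 4 of these 5 were lower (median log2 fold change -0.81, KRT18 the lowest at -1.31), where 33.3% of all tested genes were. In DTEC 4 were higher than in DTC, where 28.8% of all tested genes were, and EPCAM was lower than in untreated WT. Of the fibroblast markers, COL1A2, COL3A1, DCN and LUM had at most 19 counts in any library, while COL1A1 lay at 8.30 CPM in untreated WT and 55.7 in DTC. PTPRC and CD3E, markers of blood cells, had at most 5 counts in any library, CD68 lay at 29.8 CPM in untreated WT and 46.4 in DTC, and the endothelial marker PECAM1 at 32.04 and 8.77. The part of other cell types in the results was not tested. In bulk RNA, fewer cells with a transcript and less of it per cell cannot be told apart.

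The DTC libraries differed from each other more than those of any other group. Across the 59 genes, the median coefficient of variation over 3 libraries was 29.9% in DTC, 6.25% in untreated WT, 9.60% in DTEC and 4.33% in KO. Over all tested genes it was 17.6%, 9.46%, 12.7% and 6.94%. DTC replicate 1 held the lowest DTC level for 56 of the 59 genes, and DTC replicate 2 held the highest for 49. Relative to the untreated WT mean, the median log2 difference over the 59 genes was -0.73 in DTC replicate 1, 0.30 in replicate 2 and -0.03 in replicate 3. The corresponding medians were -0.53, -0.49 and -0.28 in the DTEC libraries and -0.16, -0.10 and -0.11 in the KO libraries.

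**Figure D1:**
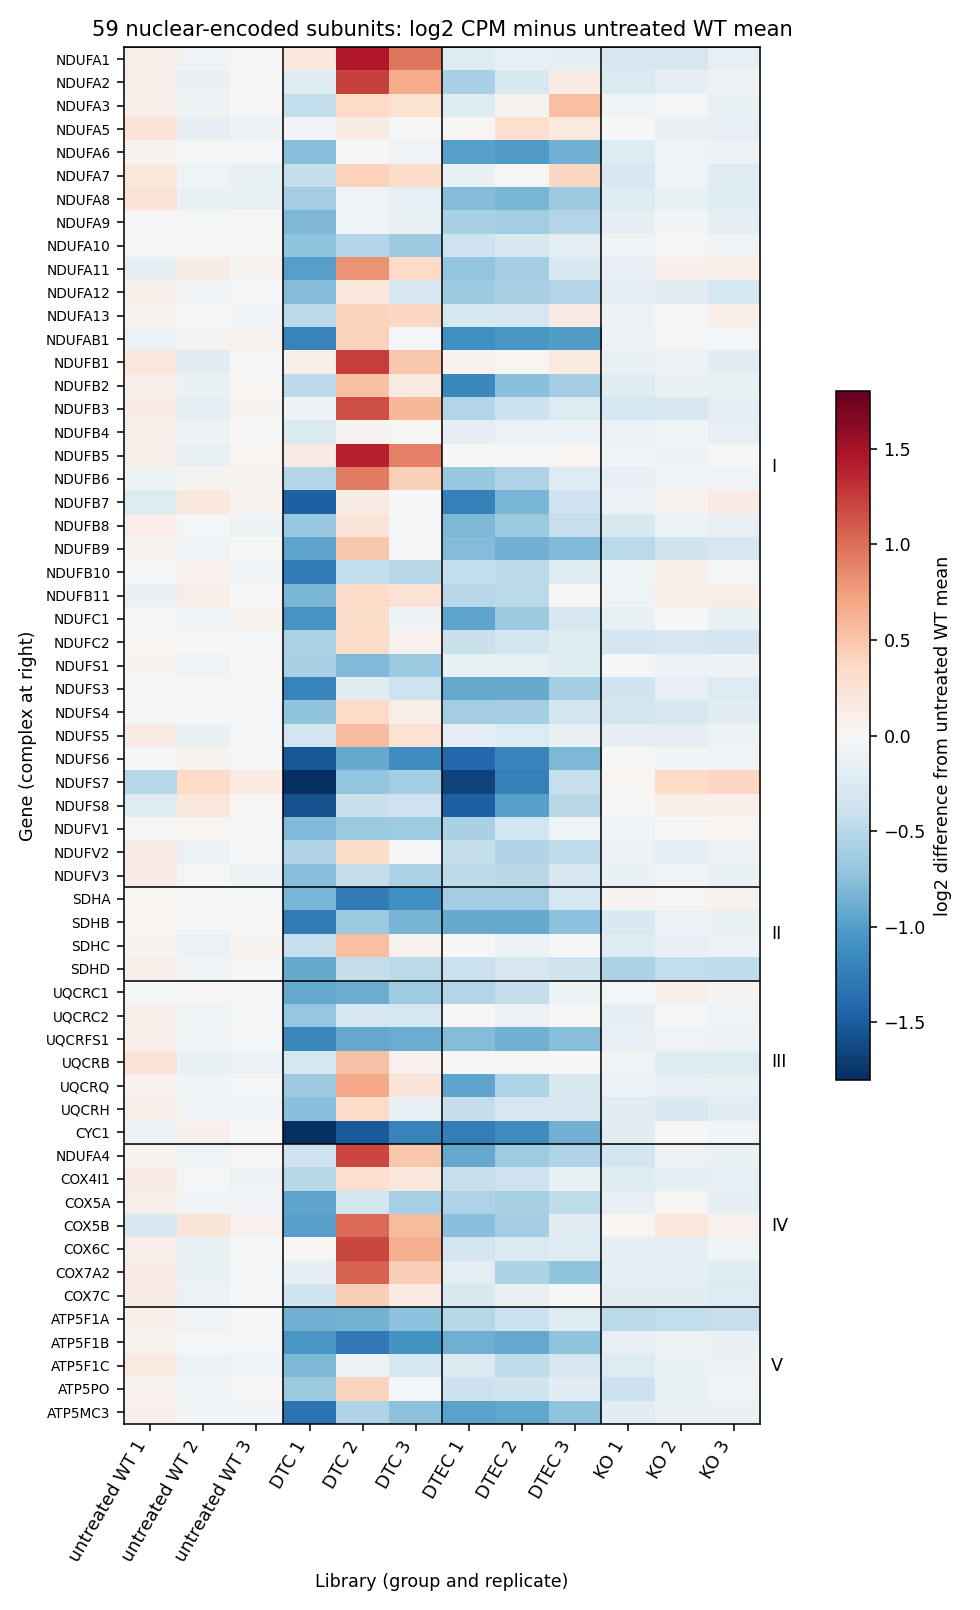
Log2 CPM of each of the 59 genes (rows, grouped by complex I to V) in each of the 12 libraries (columns), minus the mean of the 3 untreated WT libraries. Colour gives the log2 difference, red above and blue below the untreated mean, and differences beyond the ends of the scale take the end colours. DTC replicate 1 is blue in nearly every row (median -0.73), DTC replicates 2 and 3 split between red and blue rows, and the DTEC libraries are mostly pale to mid blue.

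Summed over all 59 genes, the untreated WT libraries held 8237, 7830.0 and 7835 CPM. The DTC libraries held 4493, 7304 and 6365 CPM, the DTEC libraries 5250.0, 5407 and 6129, and the KO libraries 6974, 7357 and 7297. With TMM scaling, every treated or knockout library lay below every untreated WT library, with group means at 76.0% (DTC), 70.2% (DTEC) and 90.5% (KO) of the untreated mean. A two-sided exact permutation test of each of these 3 differences gave p = 0.1, the smallest value that 3 libraries against 3 can give. For DTC this depended on the scaling: the difference in summed CPM was -1913 with TMM, -510 with upper-quartile scaling (exact permutation p = 0.9) and -199 with total counts alone (exact permutation p = 1). As a share of the library total, the 59 genes made up 0.734%, 0.711% and 0.711% in untreated WT and 0.517%, 0.839% and 0.739% in DTC, so that DTC replicates 2 and 3 then lay above all untreated libraries. Without DTC replicate 1 the TMM-scaled difference was -945 CPM. With total counts alone the differences were -1515 CPM in DTEC and -365 in KO, against -2372 and -758 with TMM, each with an exact permutation p of 0.1. DTEC and DTC overlapped, and their means differed by -459 CPM (two-sided exact permutation p = 0.6), or by -1316 with total counts alone (exact permutation p = 0.4).

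By complex, the summed level of complex V stood at a mean of 54.0% of untreated WT in DTC, and those of complexes II and III stood at 63.4% and 65.8%. Complex I stood at 90.5% and complex IV at 118% in DTC, and in both the DTC libraries spanned the untreated range. Complex IV read 648, 1484 and 1117 CPM in the 3 DTC libraries, against 952, 903 and 899.9 in untreated WT. These sums weigh highly expressed genes most, and no test was run on a single complex.

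**Figure D2:**
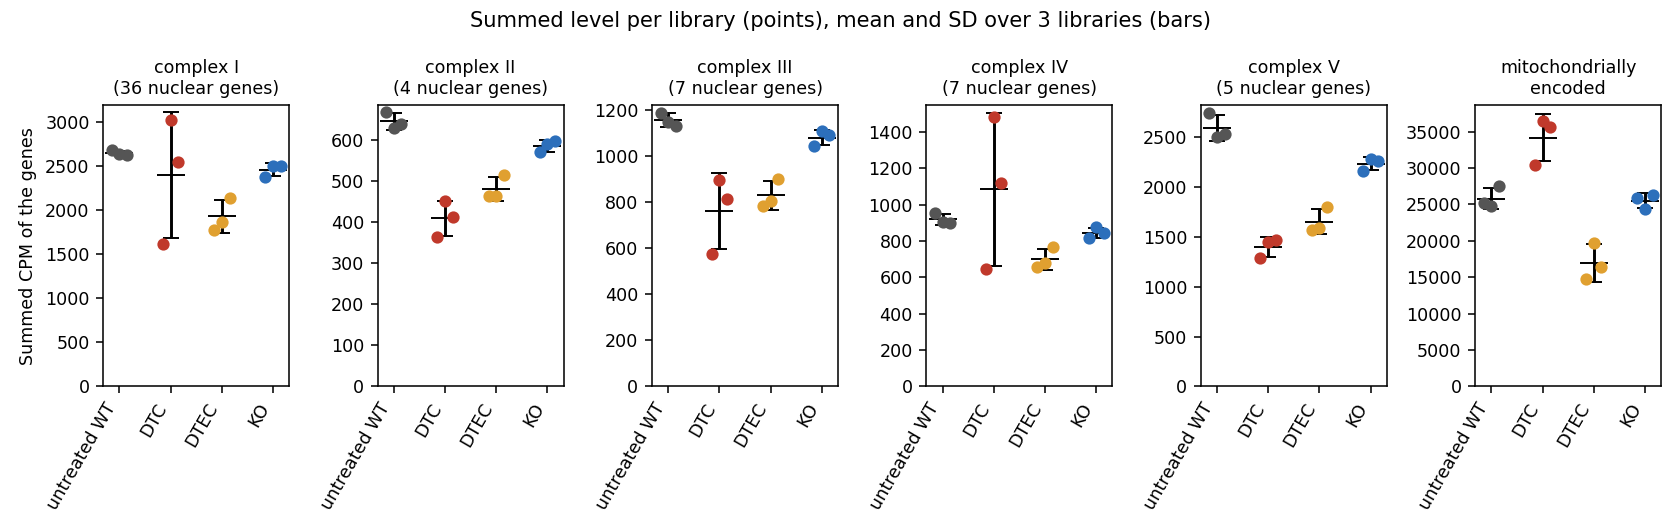
Summed CPM of the nuclear genes of complexes I to V and of the mitochondrially encoded subunits (vertical axes, from 0) in the 4 groups. Points are libraries and bars are the mean and SD of 3. DTC libraries of complexes II and V form tight clusters below untreated WT, while those of complex IV run from 648 to 1484 CPM across the untreated level, and the mitochondrially encoded sum is highest in DTC.

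After 7 days of erlotinib, 9 of 36 complex I genes, 3 of 4 of complex II, 4 of 7 of complex III, 1 of 7 of complex IV and 4 of 5 of complex V were lower, and 5 genes of complex I and 1 of complex IV were higher. Of the 59 genes, 27 were called, 6 higher (10.2%) and 21 lower (35.6%), where 67.3% of all tested genes were called, 34% higher and 33.3% lower. Groups did not overlap for 2 genes that lay above untreated WT and 21 that lay below it, and 35.1% and 33.8% of all tested genes did so. The median log2 fold change was -0.12 over the 59 genes and 0.06 over all tested genes. That gap of -0.17 was -0.17, -0.17 and -0.16 with median-of-ratios, total-count and upper-quartile scaling, although the last 2 moved the median of all genes to 0.41 and 0.34 and that of the 59 genes to 0.24 and 0.18. Without DTC replicate 1 the picture changed, with 24 genes called higher, 18 lower, and medians of 0.15 over the 59 genes and 0.12 over all genes. The calls that held in all 17 alternative analyses, leaving out each library included, were NDUFA1, NDUFB5 and COX6C among the 6 higher and 12 of the 21 lower. These 12 were NDUFA10, NDUFS1, NDUFS6, NDUFV1, SDHA, SDHB, UQCRC1, UQCRFS1, CYC1, ATP5F1A, ATP5F1B and ATP5MC3. Of the other calls, NDUFA2 was lost in 8 alternatives, NDUFS8 in 10, ATP5F1C in 8, NDUFS3 and NDUFS7 in 6 each, NDUFB3 in 3, NDUFB1, NDUFB10, UQCRC2 and COX5A in 2 each, and NDUFV3 and SDHD with total-count scaling. Both NDUFB1 and NDUFB3 were among those lost without DTC replicate 2.

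Complex II, the succinate dehydrogenase that also serves the citric acid cycle, had 3 of 4 genes lower at 7 days. SDHA (chr5:218241-256700), the flavoprotein that oxidises succinate, read 291, 282 and 276 CPM in the untreated WT libraries and 159.5, 118 and 131 in DTC. All DTC libraries lay well under all untreated ones, and SDHA fell by a log2 fold change of -1.05 (SE 0.12) with an adjusted p of 2.07e-06 in edgeR's quasi-likelihood test. SDHB (chr1:17018722-17054170), the iron-sulfur subunit that carries electrons onward, read 92.7, 87.96 and 90.5 CPM in untreated WT and 37.4, 56.98 and 50.7 in DTC. Here too the groups did not overlap, DTC replicate 1 was lowest, and the log2 fold change was -0.90 (SE 0.13) (edgeR adjusted p = 2.68e-05).

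The membrane anchors of complex II are given next. SDHD (chr11:112086773-112120013) read 178, 162 and 165 CPM in untreated WT and 89.97, 125 and 120.2 in DTC, with a log2 fold change of -0.59 (SE 0.12) and an edgeR adjusted p of 3.90e-04. SDHC (chr1:161314257-161375340), its partner in the membrane, read 107, 96.4 and 107 CPM in untreated WT and 77.7, 150.0 and 109 in DTC. Its DTC libraries lay below, above and just above the untreated range, and the log2 fold change of 0.12 (SE 0.17) was not called. Without DTC replicate 1 SDHC was called higher at 0.36 (edgeR adjusted p = 0.00639), and without DTC replicate 2 its estimate was -0.08.

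Promoters of the 3 genes below are shown because each holds 3 of the 4 sequence motifs searched, of factors known to regulate mitochondrial genes, and because all 3 genes were lower in DTC. The windows run from 250 bases before to 30 after the start in the RefSeq table for GRCh38.p14, read 5′ to 3′ on the strand of the gene, with motif matches on either strand in capitals. The motifs were CGCATGCG (the NRF1 core), CCGGAAG (the core of ETS factors such as GABPA), AAGATGGCG (the YY1 core) and AAGGTCA (the element bound by ERR receptors).
SDHB, chr1:17054003-17054282, minus strand: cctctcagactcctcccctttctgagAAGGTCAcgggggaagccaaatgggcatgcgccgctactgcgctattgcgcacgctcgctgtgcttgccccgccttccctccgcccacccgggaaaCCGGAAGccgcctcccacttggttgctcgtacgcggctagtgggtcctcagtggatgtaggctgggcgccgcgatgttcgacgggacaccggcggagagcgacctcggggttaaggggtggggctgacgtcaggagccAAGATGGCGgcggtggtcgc
SDHD, chr11:112086623-112086902, plus strand: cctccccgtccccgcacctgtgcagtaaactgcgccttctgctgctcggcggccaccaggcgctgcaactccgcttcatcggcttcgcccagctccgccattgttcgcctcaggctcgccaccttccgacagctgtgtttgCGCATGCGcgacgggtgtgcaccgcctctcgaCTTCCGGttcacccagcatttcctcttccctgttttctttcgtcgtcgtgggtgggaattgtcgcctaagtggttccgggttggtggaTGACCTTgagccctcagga
NDUFS7, chr19:1383657-1383936, plus strand: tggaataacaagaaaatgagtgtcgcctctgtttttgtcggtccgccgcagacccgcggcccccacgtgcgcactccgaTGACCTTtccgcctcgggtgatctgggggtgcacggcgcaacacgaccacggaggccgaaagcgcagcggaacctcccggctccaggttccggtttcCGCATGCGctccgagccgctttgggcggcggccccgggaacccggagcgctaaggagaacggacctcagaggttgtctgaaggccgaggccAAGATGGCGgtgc
SDHB holds the ERR, ETS and YY1 motifs, SDHD the NRF1, ETS and ERR motifs, and NDUFS7 the ERR, NRF1 and YY1 motifs.

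Windows of 300 bases were found for 48 of the 59 genes, and 25 of these held at least 1 of the 4 motifs. The NRF1 core was present in 7 of 48 (14.6%), against 4.22% of tested genes with a window and 2.46% of all genes with a window. The ETS core was present in 12 (25%, against 21.2% and 12.2%), the YY1 core in 8 (16.7%, against 4.30% and 2.14%) and the ERR element in 8 (16.7%, against 3.95% and 4.80%). The NRF1 motif was in the windows of ATP5F1C, NDUFA5, NDUFA8, NDUFB4, NDUFS6, NDUFS7 and SDHD, of which NDUFA5 and NDUFB4 were called in no comparison. The 11 genes without an entry were NDUFA4, NDUFB5, NDUFB9, NDUFC2, NDUFS5, SDHC, UQCRB, CYC1, COX6C, ATP5F1B and ATP5MC3. A match is a description of the sequence, and binding was not measured.

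In complex III, 4 of 7 genes were lower at 7 days, namely cytochrome c1, the Rieske protein and both core proteins. CYC1 (chr8:144095027-144097525), cytochrome c1, read 324, 368 and 346 CPM in untreated WT and 93.8, 122 and 150.5 in DTC. It had the most negative log2 fold change of the 59 genes, -1.50 (SE 0.15), with an edgeR adjusted p of 7.66e-07 and no overlap between the groups. UQCRFS1 (chr19:29205321-29213541), the Rieske iron-sulfur protein, read 132, 119.6 and 122 CPM in untreated WT and 55.5, 65.7 and 67.1 in DTC, a log2 fold change of -0.99 (SE 0.10) (edgeR adjusted p = 4.72e-07). The core proteins UQCRC1 and UQCRC2 had log2 fold changes of -0.81 and -0.43 and were called. The small subunits UQCRB, UQCRQ and UQCRH were not, with log2 fold changes from -0.12 to 0.18.

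The ATP synthase showed the same direction in its catalytic head. ATP5F1B (chr12:56638175-56646068), the catalytic beta subunit, read 1228, 1145 and 1144 CPM in untreated WT and 567, 479 and 556 in DTC. The DTC libraries were close to each other and all were far below untreated WT, with a log2 fold change of -1.14 (SE 0.10) and an edgeR adjusted p of 1.53e-07. ATP5F1A (chr18:46080248-46104334), the alpha subunit, read 769, 694 and 713 and 397, 403 and 434 CPM, a log2 fold change of -0.82 (SE 0.10) (edgeR adjusted p = 3.70e-06). ATP5MC3, 1 of 3 genes for the rotor ring subunit c, read 496, 449 and 449 CPM in untreated WT and 184, 316 and 279 in DTC, with no overlap and a log2 fold change of -0.84 (SE 0.15) (edgeR adjusted p = 2.39e-04). The gamma subunit gene ATP5F1C was called at -0.38 with overlapping groups, and ATP5PO, of the stalk that holds the head still, was not called (-0.04).

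Within complex I, the genes of the catalytic core were mostly lower. The 6 core genes had a median log2 fold change of -0.69 at 7 days. Of these, 5 were lower, NDUFS1, NDUFS3, NDUFS7, NDUFS8 and NDUFV1, where 33.3% of all tested genes were. The calls of NDUFS3 and NDUFS7 were each lost in 6 of 17 alternatives, and that of NDUFS8 in 10. The remaining 30 genes had a median of -0.01, with 5 higher and 4 lower, where 34% and 33.3% of all tested genes were. NDUFV1 (chr11:67605653-67612554), which binds the flavin that accepts electrons from NADH, read 208, 210.5 and 205 CPM in untreated WT and 119.7, 131 and 133 in DTC, a log2 fold change of -0.70 (SE 0.11) (edgeR adjusted p = 8.62e-05). NDUFS1, the large iron-sulfur protein next to it, read 140.5, 129 and 137 and 90.3, 77.7 and 84.9 CPM, a log2 fold change of -0.68 (SE 0.09) (edgeR adjusted p = 8.53e-06). In both genes the DTC libraries were close together and below all untreated ones.

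NDUFS7 (chr19:1383527-1395589), which carries the last iron-sulfur cluster before ubiquinone, was lower and more scattered. It read 20.01, 36.7 and 32.01 CPM in untreated WT and 7.00, 17.5 and 18.7 in DTC, a log2 fold change of -1.03 (SE 0.38) with an edgeR adjusted p of 0.0295. This call was lost in 6 of 17 alternatives, including the one without DTC replicate 1, at -0.67. NDUFS6 (chr5:1801400-1816605), a zinc-binding accessory subunit, read 106, 113 and 106 CPM in untreated WT and 37.6, 57.5 and 50.02 in DTC. It had the most negative log2 fold change of the complex I genes, -1.16 (SE 0.16) (edgeR adjusted p = 1.32e-05). NDUFA10, NDUFB10 and NDUFV3 were the other accessory genes that fell, with log2 fold changes of -0.63, -0.68 and -0.59.

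The genes that rose at 7 days were NDUFA1, NDUFA2, NDUFB1, NDUFB3 and NDUFB5 of complex I and COX6C of complex IV, all accessory subunits. NDUFA1 (chrX:119871487-119876662) read 60.7, 54.00 and 55.03 CPM in untreated WT and 65.1, 153 and 110.5 in DTC. The groups did not overlap, but replicate 1 lay just above the untreated range and replicate 2 far above it, and the log2 fold change was 0.95 (SE 0.21) (edgeR adjusted p = 0.00135). NDUFB5 (chr3:179604690-179627647) had the same shape, with 73.5, 62.1 and 70.00 CPM in untreated WT and 75.5, 180.4 and 128 in DTC, a log2 fold change of 0.90 (SE 0.22) (edgeR adjusted p = 0.00224). For NDUFA2, NDUFB1, NDUFB3 and COX6C the log2 fold changes ran from 0.64 to 0.71 and DTC replicate 1 lay within or below the untreated range.

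In complex IV, COX5A, which helps to hold the heme-bearing core, was the gene that fell. It read 126, 114 and 114 CPM in untreated WT and 60.97, 93.3 and 77.8 in DTC, a log2 fold change of -0.61 (SE 0.13) (edgeR adjusted p = 8.72e-04). The other 6 genes had log2 fold changes from 0.04 for COX4I1 to 0.71 for COX6C, and COX6C was the 1 called. Without DTC replicate 1, 6 of the 7 were called higher and the median of the complex moved from 0.41 to 0.82. With total-count scaling 5 were higher and 0 lower (median 0.76), and with upper-quartile scaling 4 were higher and 0 lower (0.71).

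NDUFA4 and its paralogue C15orf48 were set side by side, since C15orf48 is known to take the place of NDUFA4 in complex IV. NDUFA4 (chr7:10931951-10940256) read 103, 93.8 and 100.5 CPM in untreated WT and 76.5, 227 and 139 in DTC, a log2 fold change of 0.57 (SE 0.28) that was not called, while without DTC replicate 1 it was called at 0.92. C15orf48 (chr15:45430529-45448761) read 0.388, 0.303 and 0.144 CPM in untreated WT and 11.8, 38.1 and 23.2 in DTC, and rose by a log2 fold change of 6.44 (SE 0.54) with an edgeR adjusted p of 3.58e-07. At 28 days C15orf48 was back at 0.548, 0.344 and 0.0824 CPM and NDUFA4 stood at 52.2, 63.6 and 67.5. The third paralogue, NDUFA4L2, had at most 9 counts in any library.

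**Figure D3:**
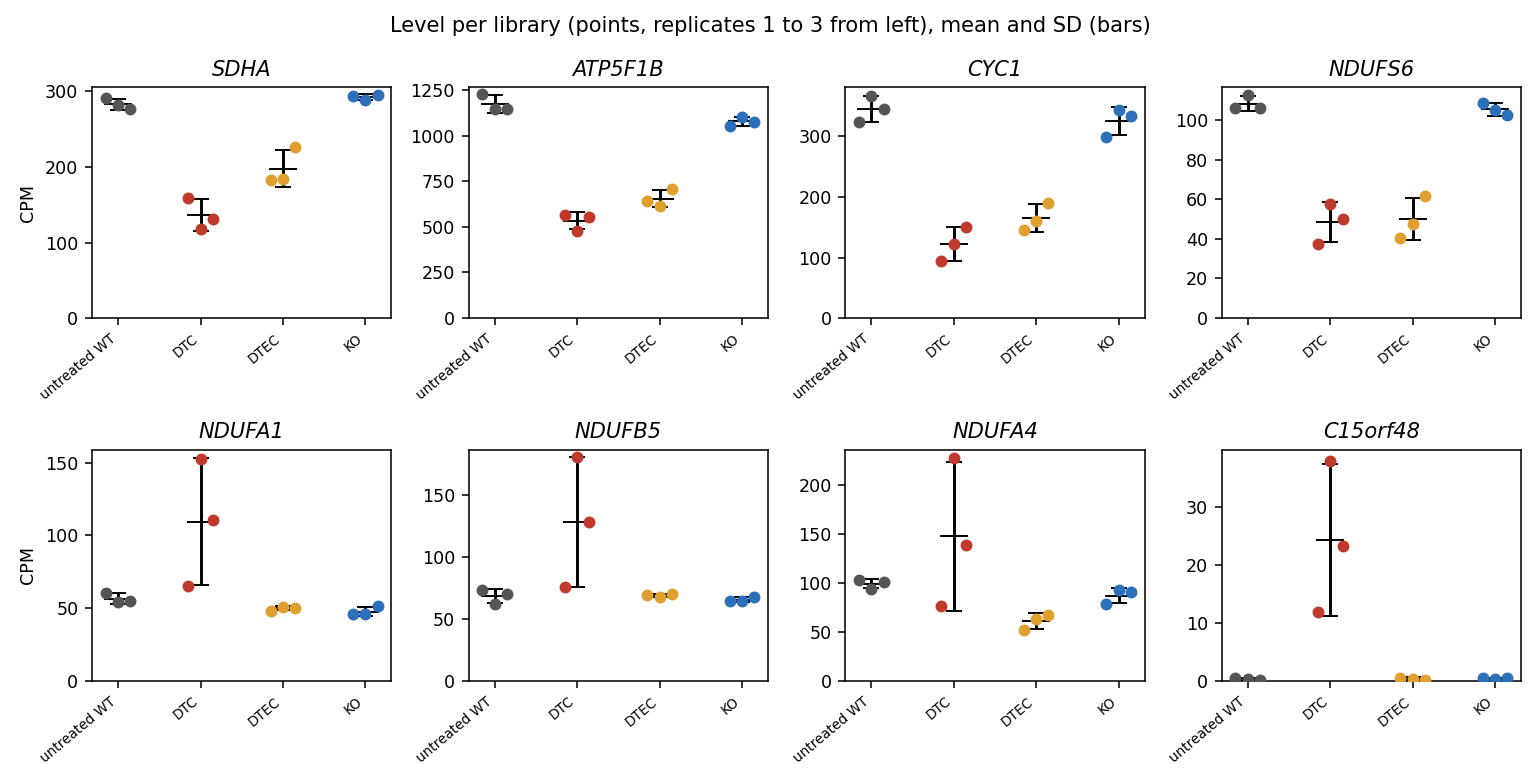
CPM of 8 genes (vertical axes, from 0) in the 4 groups, with a point for each library, replicates 1 to 3 from left, and bars for the mean and SD of 3. SDHA, ATP5F1B, CYC1 and NDUFS6 in the top row sit below untreated WT in DTC and DTEC, while NDUFA1, NDUFB5, NDUFA4 and C15orf48 in the bottom row are highest in DTC, with DTC replicate 2 above the other libraries in all 4.

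At 28 days, 17 of 36 complex I genes, 3 of 4 of complex II and 3 of 7 of complex III were lower. In complexes IV and V, 1 of 7 and 3 of 5 were lower. In DTEC against untreated WT, 27 of the 59 genes were lower (45.8%), where 52.3% of all tested genes were called, 26% higher and 26.3% lower. Of the 27 calls, 15 held in all 17 alternatives, and they included CYC1, SDHA, SDHB, UQCRFS1, COX5A, ATP5F1B, ATP5MC3, NDUFS6, NDUFA6 and NDUFAB1. The calls lost most often were NDUFV1 (9 alternatives), NDUFA10 (8), NDUFS4 and UQCRC1 (7 each) and NDUFS7 (6), and each of these was lost in at least 4 of the 6 fits that left out a library. The 0 genes called higher by edgeR remained 0 at an unadjusted p under 0.05, with limma-voom and with DESeq2, while 1 was called with total-count scaling. The median log2 fold change was -0.43, against 0.02 over all tested genes, and 54 of the 59 estimates were negative. With total-count scaling, which moved the median of all genes to 0.19, that of the 59 genes was -0.26 and 17 were lower. For 45 of the 59 genes every DTEC library lay below every untreated WT library, and 31.3% of all tested genes did so, while 0 genes lay above in every library, against 31.1% of all tested genes.

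The genes of complexes II, III and V that were lowest at 28 days were ones already lower at 7 days. CYC1 read 145, 159.8 and 190.5 CPM in DTEC, a log2 fold change against untreated WT of -1.07 (SE 0.15) (edgeR adjusted p = 4.27e-05). For ATP5F1B the DTEC libraries read 639.9, 617 and 707 CPM (-0.84 (SE 0.10), edgeR adjusted p = 7.11e-06), and for ATP5MC3 238, 243 and 282 CPM (-0.87 (SE 0.15), edgeR adjusted p = 2.98e-04). All of these libraries lay below the untreated range given above. SDHB read 47.96, 47.98 and 54.1 CPM (-0.85 (SE 0.13), edgeR adjusted p = 8.52e-05) and UQCRFS1 72.6, 68.2 and 73.5 CPM (-0.80 (SE 0.10), edgeR adjusted p = 8.85e-06), again without overlap. SDHA, SDHD, UQCRC1 and ATP5F1A were also lower, with log2 fold changes from -0.52 to -0.34.

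Complex I, with 36 of the 59 genes, contributed 17 of the 27 that were lower at 28 days. These were 5 of the 6 core genes and 12 of the 30 others, where 26.3% of all tested genes were lower. NDUFS6 read 40.6, 47.7 and 61.6 CPM in DTEC, a log2 fold change of -1.12 (SE 0.16) (edgeR adjusted p = 3.92e-05), and was the gene with the most negative estimate in this complex. NDUFAB1 (chr16:23581002-23596356), the mitochondrial acyl carrier protein, read 73.8, 82.2 and 82.8 CPM in untreated WT, 34.6, 106 and 77.4 in DTC and 36.9, 38.6 and 39.4 in DTEC. Its DTC libraries spanned the untreated range and its DTEC libraries were close together below it, with a log2 fold change of -1.05 (SE 0.28) at 28 days (edgeR adjusted p = 0.0068). NDUFA6 (chr22:42085525-42090955), an accessory subunit that binds NDUFAB1, read 68.8, 64.4 and 63.9 CPM in untreated WT and 33.2, 32.4 and 36.1 in DTEC, -0.95 (SE 0.16) (edgeR adjusted p = 1.54e-04).

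The other complex I genes that were lower at 28 days were NDUFS3, NDUFS7, NDUFS8, NDUFV1 and NDUFV2 of the core and NDUFA8, NDUFA9, NDUFA10, NDUFA12, NDUFB2, NDUFB8, NDUFB9, NDUFS4 and NDUFV3. Their log2 fold changes ran from -1.05 for NDUFS7 to -0.27 for NDUFA10. NDUFS1, the core gene not called at 28 days, read 123, 123 and 116 CPM in DTEC, with an estimate of -0.16 (SE 0.09). In complex IV, COX5A was lower, with 80.4, 78.00 and 86.1 CPM in DTEC and a log2 fold change of -0.53 (SE 0.13) (edgeR adjusted p = 0.00346), and the other 6 genes had estimates from -0.70 to -0.14 that were not called. DTEC replicate 3 held the highest DTEC level for 50 of the 59 genes.

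**Figure D4:**
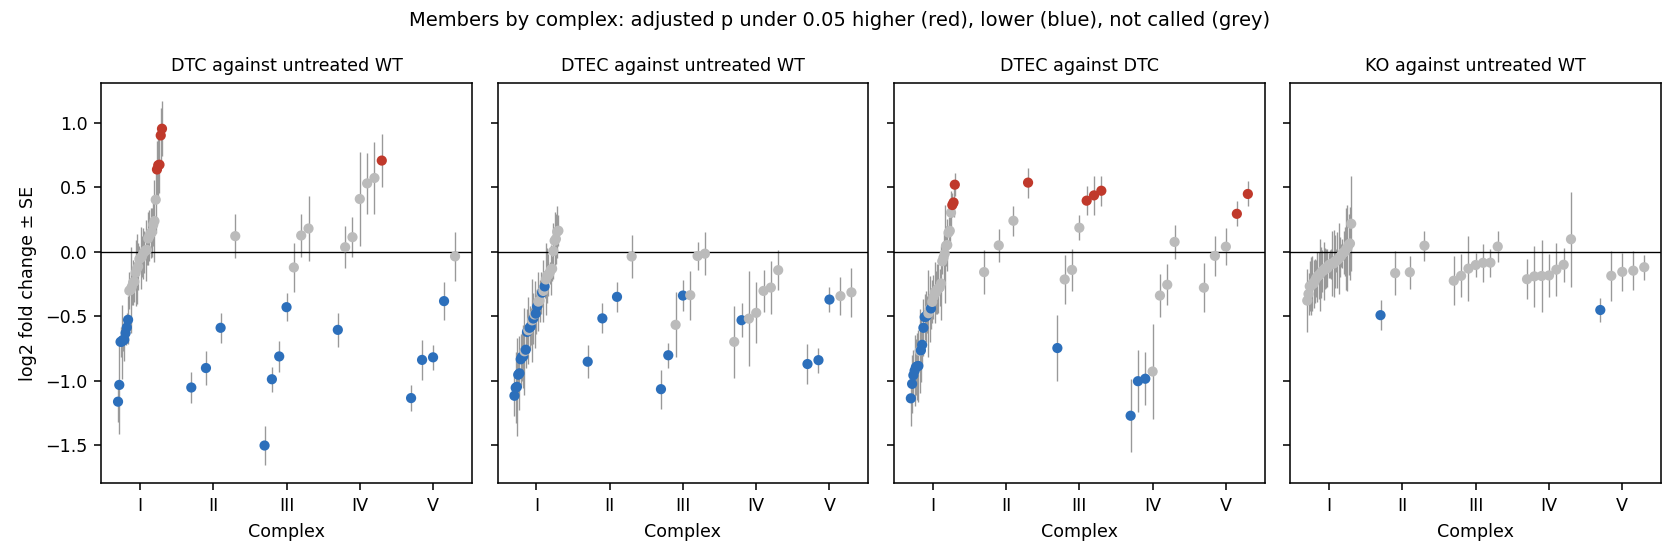
Log2 fold change (vertical axis) with its SE for each of the 59 genes, in order of value within complexes I to V, in the 4 comparisons. Red and blue points had an adjusted p under 0.05 higher or lower and grey points were not called. DTC against untreated WT spans -1.50 to 0.95, DTEC against untreated WT shows no red point, and KO against untreated WT shows 2 blue points.

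The comparison of DTEC with DTC asks what changed between 7 and 28 days of drug, and the 59 genes went both ways. There were 9 genes higher (15.3%) and 18 lower (30.5%) in DTEC, where 55.4% of all tested genes were called, 28.8% higher and 26.6% lower. The median log2 fold change was -0.28, against -0.01 over all tested genes. Total-count scaling gave 3 higher and 29 lower, but left the gap between the 2 medians at -0.27. Leaving out DTC replicate 1 gave 8 higher and 36 lower, and leaving out DTC replicate 2 gave 7 higher and 10 lower, where 60.3% and 48.2% of all tested genes were called.

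The 9 genes that were higher in DTEC than in DTC were NDUFA10, NDUFS1 and NDUFV1 of complex I, SDHA of complex II, UQCRC1, UQCRC2 and CYC1 of complex III, and ATP5F1A and ATP5F1B of complex V. SDHA read 183, 184 and 226 CPM in DTEC, above all 3 DTC libraries and below all untreated ones, with a log2 fold change against DTC of 0.54 (SE 0.12) (edgeR adjusted p = 0.00141). ATP5F1A read 509, 554 and 620.3 CPM in DTEC, likewise between the other groups, 0.45 (SE 0.10) against DTC (edgeR adjusted p = 0.00129). For NDUFS1 the difference was 0.52 (SE 0.09) (edgeR adjusted p = 1.90e-04). The other 6 had log2 fold changes from 0.29 for ATP5F1B to 0.47 for UQCRC1, and in all 9 the DTEC mean lay between the DTC and untreated WT means. NDUFS1, SDHA and ATP5F1A were called higher in every one of 17 alternative analyses, while ATP5F1B was lost in 8 of them, CYC1 in 7, NDUFV1 in 4, NDUFA10 and UQCRC2 in 3 each and UQCRC1 in 1. Without DTC replicate 2, the calls of CYC1 and ATP5F1B were among those lost.

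Libraries of DTEC and DTC did not overlap for 10 genes above and 9 below, where 29% and 27.7% of all tested genes did so. The 18 genes that were lower in DTEC than in DTC included the 6 that had risen at 7 days. Both comparisons use the same DTC libraries, so that rise and this fall are not independent. NDUFA1 read 48.2, 50.99 and 50.2 CPM in DTEC, below every DTC library and within -0.18 log2 units of untreated WT, with a log2 fold change against DTC of -1.14 (SE 0.21) (edgeR adjusted p = 5.51e-04). NDUFB5 read 68.9, 67.7 and 69.8 CPM in DTEC, inside the untreated range, and NDUFB3 had 25.1, 20.3 and 23.7 CPM in untreated WT, 21.5, 51.3 and 34.7 in DTC and 15.99, 17.5 and 19.4 in DTEC. Their log2 fold changes against DTC were -0.90 (SE 0.22) and -1.02 (SE 0.23), and edgeR gave adjusted p of 0.00325 and 0.00182. NDUFA4 fell by 1.27 between DTC and DTEC on the log2 scale (SE 0.28, edgeR adjusted p = 0.0023), and COX7A2 was at -1.004.

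Lower in DTEC than in both DTC and untreated WT were 8 genes, NDUFA6, NDUFA8, NDUFAB1, NDUFB2, NDUFB8, NDUFB9, NDUFS4 and NDUFV2. NDUFB2 read 60.6, 52.8 and 58.4 CPM in untreated WT, 41.1, 82.1 and 63.9 in DTC and 25.5, 33.9 and 36.96 in DTEC, with a log2 fold change against DTC of -0.96 (SE 0.20) (edgeR adjusted p = 0.00111). The remaining 4 of the 18, NDUFA4, NDUFB6, UQCRQ and COX7A2, were not called against untreated WT at either time. Of the 18, the 10 called in all 17 alternatives were NDUFA1, NDUFA4, NDUFA6, NDUFA8, NDUFB2, NDUFB3, NDUFB5, NDUFB6, COX6C and COX7A2, and the other 8 were lost without DTC replicate 2.

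Sorted by the 3 comparisons among wild-type groups, 7 genes were lower at both times and higher at 28 days than at 7 days, and 10 were lower at both times without a called difference between them. These 17 were NDUFA10, NDUFS3, NDUFS6, NDUFS7, NDUFS8, NDUFV1, NDUFV3, SDHA, SDHB, SDHD, UQCRC1, UQCRFS1, CYC1, COX5A, ATP5F1A, ATP5F1B and ATP5MC3. Both contrasts with untreated WT use the same 3 untreated libraries, so the shared direction is not independent. The 7-day contrast and that of DTEC with DTC likewise share the DTC libraries, so opposite directions in these are not independent either. Called in no comparison, KO included, were 18 genes: NDUFA3, NDUFA5, NDUFA7, NDUFA11, NDUFA13, NDUFB4, NDUFB7, NDUFB11, NDUFC1, NDUFC2, NDUFS5, SDHC, UQCRB, UQCRH, COX4I1, COX5B, COX7C and ATP5PO. Some of these were scattered rather than steady, as COX5B read 81.4, 326 and 239 CPM in DTC, while NDUFB4 read 52.8, 46.6 and 49.7 in untreated WT, 41.5, 51.2 and 50.6 in DTC and 44.1, 45.95 and 46.1 in DTEC.

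Per kilobase of mRNA, which allows levels of different genes to be set side by side, ATP5F1B was the most abundant of the 59 in untreated WT at 638 CPM per kilobase, followed by CYC1 at 279 and COX4I1 at 264. In DTC the order changed, with COX5B at 302, ATP5F1B at 290.3 and NDUFS5 at 276 CPM per kilobase, and the spread of COX5B over the DTC libraries exceeds the gaps between them. In DTEC, ATP5F1B led again at 356. NDUFV3 had the lowest level in all 4 groups, 6.09 CPM per kilobase in untreated WT. The lengths are those of the longest principal transcript in GENCODE 29, which need not be the transcript these cells make.

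The signed difference between DTC replicates 2 and 1 was higher for short mRNAs. Of the 59 genes, 27 have an mRNA under 1000 bases, a threshold set after the data had been seen. DTC replicate 2 exceeded replicate 1 by a median of 1.07 log2 units for these 27 and of 0.66 for the 32 longer ones. Over all tested genes with a length the medians were 0.77 for 714 short and -0.08 for 12825 longer mRNAs. Spearman's rho between mRNA length and this difference between 2 libraries was -0.54 over the 59 genes and -0.55 over 13539 tested genes, a description across genes that share the same 2 libraries.

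Calls at 7 days were then counted by mRNA length. Of the 27 short genes 4 were higher and 3 lower in DTC, and of the 32 longer ones 2 were higher and 18 lower. Among all tested genes with a length, 31.9% of the short were higher and 24.4% lower, and 32.2% of the longer were higher and 40.1% lower. In DTEC against DTC, 12 short genes were lower and 0 higher, where 37% of all short genes were lower and 13% higher. Of the longer genes 9 were higher and 6 lower, where 34.9% of all longer genes were higher and 25.9% lower. At 28 days against untreated WT the medians of the 27 short and 32 longer genes were close, -0.47 and -0.40. Over all tested genes with a length, the median was -0.22 for short and -0.03 for longer mRNAs. Of all short genes 17.8% were higher and 29.6% lower, and of all longer genes 27.6% were higher and 30.8% lower. The part of mRNA length, or of how a library samples short molecules, in these results was not tested.

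**Figure D5:**
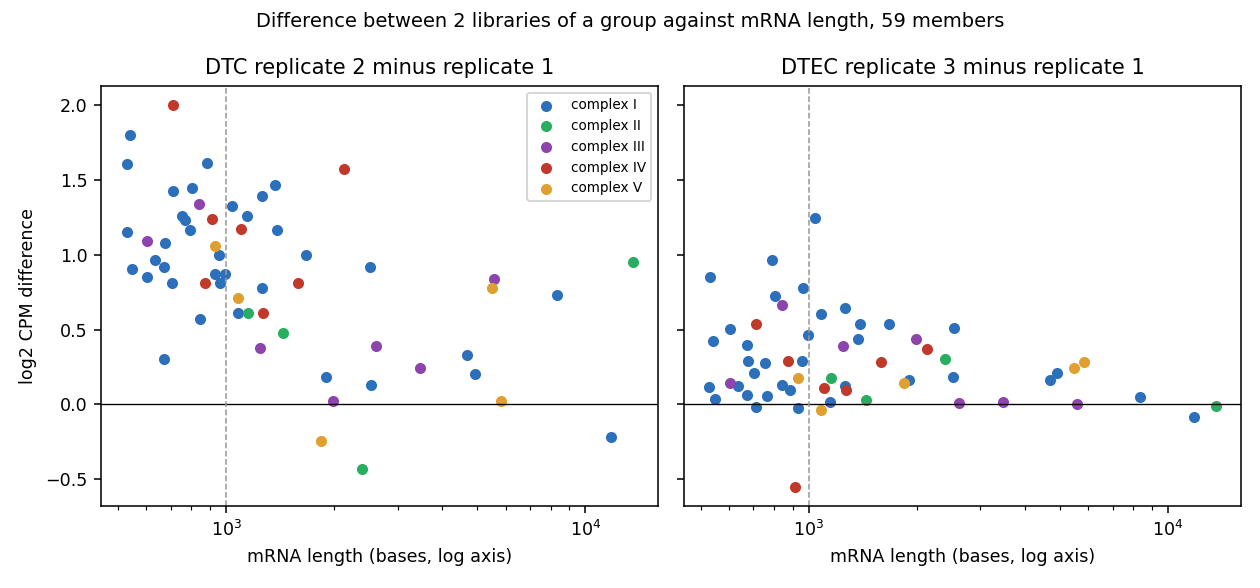
Difference in log2 CPM between 2 libraries of a group (vertical axis) against mRNA length in bases (log axis) for the 59 genes, coloured by complex, with the dashed line at 1000 bases. In DTC, replicate 2 minus replicate 1 is 1.07 in the median left of the line and 0.66 right of it, while DTEC replicate 3 minus replicate 1 gives 0.28 and 0.18.

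In untreated knockout cells, 1 gene of complex II and 1 of complex V were lower than in untreated wild-type cells. In KO, 2 of the 59 genes were lower (3.4%), where 4.31% of all tested genes were called, 2.76% higher and 1.55% lower. The 0 called higher by edgeR was also 0 at an unadjusted p under 0.05, with limma-voom and with DESeq2. SDHD read 178, 162 and 165 CPM in untreated WT and 113, 124 and 122 in KO, with no overlap and a log2 fold change of -0.49 (SE 0.12) (edgeR adjusted p = 0.0253). ATP5F1A read 517, 532 and 542 CPM in KO, below the 3 untreated libraries given above, with a log2 fold change of -0.45 (SE 0.10) (edgeR adjusted p = 0.0159). Both calls were lost in each of the 6 fits that left out 1 library of the compared groups.

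The KO estimates were small and mostly of one sign. The median over the 59 genes was -0.13, against -0.01 over all tested genes, and 50 of the 59 estimates were negative. For 27 of the 59 every KO library lay below every untreated WT library and for 0 above, where 19.9% and 15.8% of all tested genes did so. SDHA, SDHB and SDHC had log2 fold changes of 0.05, -0.16 and -0.17 and were not called, nor was NDUFA4 at -0.19 or C15orf48 at 0.55. A fit to the 6 compared libraries alone called 8 of the 59 genes, all lower, and 17.5% of all genes it tested.

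Among the 13 subunits encoded by the mitochondrial genome, 12 had positive estimates at 7 days. In DTC 6 of 13 were higher, where 34% of all tested genes were. The median log2 fold change of the 13 was 0.34, against -0.12 for the 59 nuclear genes. MT-ND5, a proton-pumping subunit of complex I, read 803, 971 and 1138 CPM in untreated WT and 1824, 1967 and 2201 in DTC, a log2 fold change of 1.04 (SE 0.15) (edgeR adjusted p = 2.75e-05), and MT-CO1, the catalytic subunit of complex IV, was at 0.58. At 28 days 12 of 13 were lower than in untreated WT, where 26.3% of all tested genes were. The median was -0.60, with MT-CYB at -0.78 and MT-CO2 at -0.76. The share of counts from the mitochondrial genome averaged 2.60% ± 0.147 in the untreated WT libraries (SD, n = 3) and 5.02% ± 0.519 after 7 days. It was 2.04% ± 0.297 after 28 days and 2.72% ± 0.112 for the knockout line. This share covers more than the 13 subunits and is taken of library totals without TMM scaling. With TMM scaling, the 13 summed to a mean of 25790 CPM without drug and 34180 after 7 days, or 132.5% of untreated WT. After 28 days the sum was 16930 CPM, or 65.6%, and the knockout line had 25530. These transcripts were measured in polyadenylated RNA, and their ratio to nuclear transcripts was not tested.

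Nuclear subunits outside the list of 59 are given for comparison. Of 20, 8 were lower at 7 days, with a median of -0.09, and 10 were lower and 1 higher at 28 days. Of all tested genes, 33.3% were lower at 7 days, and 26.3% were lower and 26% higher at 28 days. ATP5F1D and ATP5MC1 of the ATP synthase had log2 fold changes of -1.32 and -1.08 at 7 days. ATP5MC2, which makes the same mature subunit c as ATP5MC1 and ATP5MC3, read 126, 109 and 103 CPM in untreated WT, 57.05, 71.2 and 81.04 in DTC and 174, 163 and 208 in DTEC. It was lower at 7 days (-0.69 (SE 0.14), edgeR adjusted p = 4.83e-04) and higher at 28 days (0.69 (SE 0.14), edgeR adjusted p = 7.98e-04), so the 3 genes for subunit c did not keep step. ATP5MK and UQCR11 were lower in DTEC than in DTC, at -1.41 and -0.87. The call of UQCR11 was lost in 6 of 17 alternatives, among them those without DTC replicate 2 or 3.

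Of 9 genes for tissue or state isoforms, 3 passed the filter. COX4I2, COX6A2 and COX7A1 had 0 counts in all libraries, which allows up to 0.0824 to 0.115 CPM from 3 counts, a limit for counting error only. COX7B2, a paralogue of COX7B known from testis, read 13.4, 10.02 and 10.5 CPM in untreated WT and 10.9, 26.5 and 17.8 in DTC, a log2 fold change of 0.70 (SE 0.24) with an edgeR adjusted p of 0.0173. CYCS, cytochrome c itself, was at -0.74 in DTC and -1.64 in DTEC and was called at both times. ATP5IF1, the inhibitor of the ATP synthase, was higher in DTC (0.61) and lower in DTEC than in DTC (-0.91). Without DTC replicate 2, neither COX7B2 nor ATP5IF1 was called at 7 days.

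Assembly factors are the proteins that build the complexes without staying in them. At 7 days 25 of 50 assembly factors were lower and 5 higher, where 33.3% and 34% of all tested genes were. Their median of -0.33 became 0.02 with total-count scaling. COA7 and NDUFAF4 fell the most, by log2 fold changes of -2.05 and -1.75, while PET100 and COX14, both small complex IV assembly proteins, rose by 1.46 and 1.19. At 28 days 25 were lower and 4 higher, where 26.3% and 26% of all tested genes were. UQCC3 stood at -1.33, NDUFAF4 at -1.29, COA5 at 0.63 and NUBPL at 0.60. Between DTC and DTEC 11 were higher and 12 lower, where 28.8% and 26.6% of all tested genes were, and TMEM70 stood at -1.21.

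Of 16 regulators of mitochondrial gene expression, 15 passed the filter, PPARGC1A being the 1 that did not. All 15 were lower in DTC, where 33.3% of all tested genes were, or 11 of 15 with total-count or upper-quartile scaling. Their median log2 fold change was -1.25, against -0.12 for the 59 subunit genes. NRF1, a transcription factor for nuclear mitochondrial genes, read 30.9, 28.7 and 28.5 CPM in untreated WT, 8.48, 7.09 and 6.80 in DTC and 16.8, 15.7 and 18.3 in DTEC, with log2 fold changes of -1.98 (SE 0.11) and -0.80 (SE 0.11) (edgeR adjusted p = 2.42e-09 and 2.46e-05). PPRC1, a coactivator of the PGC-1 family, was at -1.96 and -1.15, and ESRRA, the receptor whose element was searched above, at -1.25 and -1.18. At 28 days 12 of 15 were lower than in untreated WT, where 26.3% of all tested genes were. Against DTC 9 were higher, where 28.8% of all tested genes were, with LRPPRC at 1.13 and POLG, which was lower, at -0.31.

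Most genes for protein import and the citric acid cycle were lower at 7 days. Of all tested genes, 33.3% were lower at 7 days, and 26.3% were lower and 26% higher at 28 days. Between DTC and DTEC, 28.8% of all tested genes were higher and 26.6% lower. Of 13 genes for import and the outer membrane, 12 were lower at 7 days with a median of -1.14, TOMM40 at -2.27 and HSPD1 at -1.81, and 12 were lower at 28 days, TOMM40 at -1.72 and HSPE1 at -1.37. Between DTC and DTEC 7 were higher, HSPD1 at 0.89 and VDAC1 at 0.82, and VDAC3 was lower at -0.78. Of 14 citric acid cycle genes 12 were lower at 7 days, CS at -1.51 and FH at -1.27, and 9 were lower and 2 higher at 28 days, IDH3A at -1.11, FH at -1.03, IDH2 at 0.68 and SUCLG2 at 0.47. Between DTC and DTEC 8 were higher and 2 lower, SUCLG2 at 1.27, CS at 0.80, OGDH at -0.35 and DLD at -0.28. In KO, TFAM (-0.43), TOMM70 (-0.48) and TIMM23 (-0.36) were lower. The TIMM23 call was lost in 12 of 17 alternatives, that of TFAM in 6 and that of TOMM70 in 5, in each case in at least 5 of the 6 fits that left out a library.

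RSEM divides a read that matches more than 1 gene or transcript, so deposited values that are not whole mark genes with divided reads. For 27 genes all 12 deposited values were exactly whole. Fewer than 6 of 12 values were whole for 17 genes: ATP5F1A, ATP5PO, NDUFA7, NDUFA9, NDUFA10, NDUFA11, NDUFA13, NDUFB5, NDUFB8, NDUFB9, NDUFC2, NDUFS1, NDUFS3, SDHA, SDHD, UQCRFS1 and UQCRH. Their levels are less certain than those of CYC1, ATP5F1B, SDHB, NDUFS6 and NDUFA1, which are among the 27.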

How the data were processed

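The deposited values are expected counts, estimated read counts per gene that need not be whole, and per the submitters' processing notes the tools named were RSEM 1.3.1, Bowtie2 2.5.2 and DESeq2 1.40.2, with build GRCh38. The annotation release the authors counted against is not given in the sources used here. Per the labels' protocols, libraries came from polyadenylated RNA with a stranded kit. All 12 belong to 1 labelled batch, so no comparison between batches was possible. Symbols were matched to 62700 of 62754 identifiers, with coordinates and lengths from GENCODE 29. There were 0 columns of other samples.

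Counts were rounded, and the tests ran in edgeR 4.0.16 under R 4.3.3: filterByExpr by group (17115 genes, at least 99.891% of counts), TMM scaling, 1 robust quasi-likelihood fit of all 12 libraries, and Benjamini-Hochberg adjustment over all tested genes. The SE is the log2 fold change divided by the root of the F statistic. The fit was tested on simulated data with the same spread in every group, so the larger spread of the DTC libraries was not covered. Alternatives used limma 3.58.1, DESeq2 1.42.0, other scalings, filters and left-out libraries. Genes were named by a rule: all of complex II, NDUFA4 with its paralogues, and per comparison the called genes of the other complexes with the largest changes and no overlap between groups (up to 3 each way in complex I, 2 in the others), 2 each way per further list among genes of at least 10 CPM, and TDP1. The subunit list, the other lists and this rule were chosen with earlier results of these data known. Some genes that the rule or a marker list covers are not reported here. All pairs of replicate libraries differed by more than sampling noise. Counts carry no molecular identifiers, so limits from counts cover counting error only.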

Additional observations from a re-analysis of the deposited data

Results flagged for a closer look

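Between 7 and 28 days of erlotinib, 27 of the 59 subunit genes were called by a direct test of DTEC against DTC. None of the 59 was called in opposite directions against untreated WT at the 2 times, but 9 other genes named or listed above were. Higher at 7 days, lower at 28 days and different between the times were MT-ATP6 (log2 fold change of DTEC against DTC -0.94), MT-CO1 (-1.02), MT-ND4 (-1.15), MT-ND4L (-1.12) and MT-ND5 (-1.65), all encoded in the mitochondrion. Lower at 7 days and higher at 28 days were ATP5MC2 (1.38), the assembly factor NUBPL (1.301), the citric acid cycle gene SUCLG2 (1.27) and PECAM1 (3.39), an endothelial marker whose CPM values were 35.2, 28.97 and 31.98 in untreated WT, 9.77, 7.62 and 8.91 in DTC and 91.6, 89.6 and 95.03 in DTEC. No group has 4 or more libraries, so single outlying libraries were not tested.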

How the results depend on the processing

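The main limits are 3 libraries a group, a single knockout line, 1 batch, DTC libraries that differ among themselves, and scaling to library totals, which cannot show a change in RNA per cell. Over the alternatives, 270 values that answer a comparison were rated as the same. For a count this meant within a set ratio of the main count, and for a median the same sign and a small move. A summed difference only had to keep its sign. Single calls could still be lost, as in DTEC against untreated WT without DTEC replicate 1, which kept 19 of 27. The other values are given here, or as ranges below for fits that left out 1 library. In DTC against untreated WT, total-count scaling gave 19 genes higher and 12 lower with a median of 0.24, upper-quartile scaling 13 higher with a median of 0.18, no filter 10 higher, and the compared libraries alone 3 higher. In DTEC against untreated WT, total-count scaling gave 1 higher, 17 lower and a median of -0.26, and the compared libraries alone 42 called, all 42 lower. In DTEC against DTC, total-count scaling gave 3 higher and 29 lower, upper-quartile scaling 4 higher, and the compared libraries alone 17 called, 4 of them higher. In KO, total-count scaling gave a median of -0.061 and the compared libraries alone 8 called, all 8 lower. The cause of these changes was not tested.

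Leaving out 1 library at a time, DTC against untreated WT had 22 to 42 genes called, 3 to 24 higher, 17 to 22 lower and medians from -0.31 to 0.15, with the highest count without DTC replicate 1. DTEC against untreated WT had 19 to 31 called, all lower except for 0 to 1 higher, and medians from -0.49 to -0.37. DTEC against DTC had 17 to 44 called, 6 to 9 higher, 10 to 36 lower, and medians from -0.54 to -0.12. KO had 0 called in each. The difference of summed CPM ran from -2250 to -945 in DTC and from -2638 to -2085 in DTEC against untreated WT, from -801 to -530 in KO, and from -1301 to 14 in DTEC against DTC, positive without DTC replicate 2.

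Some single-gene estimates changed sign. In DTC against untreated WT, SDHC ran from -0.084 without DTC replicate 2 to 0.361 without DTC replicate 1. In DTEC against untreated WT, SDHC was 0.132 with total counts, 0.078 with upper quartile, and from -0.073 to 0.011 with a library left out (0.006 without untreated WT replicate 1). In DTEC against DTC, SDHC ran from -0.379 without DTC replicate 1 to 0.066 without DTC replicate 2. SDHB in DTEC against DTC was -0.139 with total counts, -0.129 with upper quartile, and from -0.122 without DTC replicate 1 to 0.143 without DTC replicate 2 (-0.050 without DTEC replicate 3). In DTEC against untreated WT, C15orf48 was -0.065 with limma-voom and ran from -0.477 without DTEC replicate 1 to 0.701 without DTEC replicate 3 (-0.124 without untreated WT replicate 3). TDP1 ran from -0.010 without DTEC replicate 1 to 0.085 without untreated WT replicate 1 (-0.005 without untreated WT replicate 2).

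The labels link same-numbered libraries only by that number, and whether they form pairs was not settled. Of 18 such pairs, 4 had deviations correlated above 0.1 (range -0.03 to 0.18). In 23 of 36 checks, each with 3 libraries to match, a library matched its own number best. With the replicate number as a block, 26 genes were called in DTC against untreated WT, 31 in DTEC against untreated WT, 26 in DTEC against DTC and 2 in KO.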
